A study of Mus musculus with 19 samples.

Results

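Livers of mice labelled Het at Pkd1 were compared with livers of mice labelled WT across the expressed genes. The comparison takes 13 of the 19 libraries of the series: 6 Het + AAV-Cre livers (mice 4, 6, 7, 14, 19 and 20) and 7 WT + AAV-Cre livers (mice 1, 2, 3, 9, 11, 12 and 13), chosen by their genotype label. The remaining 6 libraries are Homo + AAV-Cre livers, used here only where their level is set beside that of the other genotypes. Mice of every genotype, the WT mice included, received the adeno-associated virus carrying Cre recombinase (AAV-Cre) and were kept for 3 months on a Western Diet with the liver toxicant CCl4, a regimen that models non-alcoholic steatohepatitis (NASH). There is thus no liver without virus or without the diet and toxicant. The mice are described as littermates in the series' design. Labels used here give no age, sex, strain, promoter of the Cre, share of cells reached, or part of the Pkd1 gene that is deleted. Each library carries a mouse number whose meaning the labels do not state. The p-values below set a difference against the spread between these libraries.

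Pkd1 encodes polycystin-1, a large membrane protein that acts with polycystin-2 (Pkd2) at the primary cilium and other membranes, and whose loss causes polycystic kidney and liver disease. In the liver the cysts arise from bile duct epithelium, while most of the RNA of a whole liver comes from hepatocytes. Steatohepatitis combines fat storage, hepatocyte injury, inflammation and collagen deposition by stellate cells. The gene groups described below follow those processes, with the chromosomal neighbours of Pkd1 described first.

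The deposited table holds gene counts for total liver RNA. The 13 libraries held 25847000 to 39916000 counts (totals rounded to 1000), with a mean of 35590000 ± 2203000 in WT (SD, n = 7) and 32867000 ± 4765000 in Het (SD, n = 6). The hepatocyte markers Alb, Hnf4a, Apoa1 and Ttr summed to 11839 to 15862 counts per 1000000 library counts (CPM) in WT and 12011 to 15212 CPM in Het, so the labelled tissue carried its defining RNA in each library. Mouse number followed the first principal component of the 13 libraries (15.1% of the variance, r = 0.91 as a description over 13 libraries). On the second component (10.7%) Het mice 4, 6 and 7 stood apart, at scores of 29.8 to 36.7 against -19.8 to 3.00 in the other 10 libraries. The called genes and the list medians of Het over WT are therefore also given without those 3 livers. Unless stated otherwise, a difference is the log2 fold change of Het over WT from a model that holds mouse number as a covariate, fitted with edgeR's quasi-likelihood test. A gene is called when its p, adjusted over the 15888 genes tested by the Benjamini-Hochberg method, is under 0.05.

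Pkd1 RNA itself did not separate the genotypes. Its level was lowest at 328, median 412 and highest at 451 CPM in WT, and 340, 386 and 445 CPM in Het. The groups overlapped over nearly their whole range. The log2 fold change was -0.12 ± 0.08 (SE; 95% interval -0.28 to 0.05; edgeR adjusted p = 0.765), and an exact two-sided permutation test of the difference without the covariate gave p = 0.510 over 1716 splits. In Homo livers the mean was 357 CPM, with a log2 difference from WT of -0.27 (edgeR adjusted p = 0.212, in a comparison that called 38 genes or 0.231%). Counts over the whole gene do not check the genotype labels, because reads from exons that are not deleted, and from cells that Cre did not reach, are counted too. Pkd2, the partner channel, gave a log2 fold change of -0.07 ± 0.28, and Tsc2, whose 3′ end lies against that of Pkd1, one of 0.03 ± 0.05.

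Between Het and WT livers 5 of 15888 genes were called (0.0315%), 4 higher in Het (0.0252%) and 1 lower (0.00629%). They were the phospholipid transporter Abca3, the long noncoding RNA D330041H03Rik, the mitochondrial carrier Slc25a30, the processed pseudogene Atp6v0c-ps2 and, lower in Het, 1600002H07Rik (current symbol Tedc2, a protein of the tubulin epsilon and delta complex of centrioles). Of the 5, 3 lie on chromosome 17 within 1 Mb of Pkd1. Every Het library lay beyond every WT library for each of the 5, as it did for 32 genes in all (0.201%), 19 with each Het library above (0.12%) and 13 with each below (0.0818%). Without Het mice 4, 6 and 7 no gene was called by edgeR (1121 genes at an unadjusted p under 0.05, of 16621 tested). The log2 fold changes there were 1.20 for Abca3, 3.52 for Atp6v0c-ps2, 0.64 for Slc25a30, 0.83 for D330041H03Rik and -0.64 for 1600002H07Rik. All 5 kept their direction. They were chosen with those livers included and did not overlap between the genotypes, so the direction had little room to turn.

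Abca3 showed the smallest p of the comparison. It encodes a transporter that loads phospholipids into lamellar bodies, known best from the surfactant-producing cells of the lung, and lies at chr17:24351921-24410204 (GRCm38, RefSeq), below the start of Pkd1 at chr17:24548689-24596514. Abca3 measured 65.5 CPM at the lowest, 84.1 at the median and 96.4 at the highest in WT livers. In Het livers the lowest was 170, the median 196 and the highest 218 CPM. The lowest Het liver thus stood well above the highest WT liver. The mean rose from 82.7 ± 10.1 (SD, n = 7) to 197 ± 16.4 CPM (SD, n = 6), a ratio of 2.38, with a log2 fold change of 1.28 ± 0.09 (SE, edgeR adjusted p = 1.58e-05). Homo livers lay higher still, at 240.5 to 292 CPM, and the Homo minus Het difference of 0.47 on the log2 scale was itself called (edgeR adjusted p = 0.0209, among 40 of 16463 genes called in that comparison, 0.243%).

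D330041H03Rik, a long noncoding RNA at chr17:24409481-24414513, shares 724 bases with the end of the Abca3 gene. Its WT levels ran from 3.83 CPM (lowest) through 4.62 (median) to 7.25 (highest), and its Het levels from 9.22 through 10.1 to 12.3 CPM. The groups did not overlap. The log2 fold change was 1.09 ± 0.15 (SE, edgeR adjusted p = 0.0223). The strand setting of the counting was not found in the labels, so reads of the overlap cannot be assigned to one of the pair with certainty. In Homo livers D330041H03Rik averaged 13.0 CPM, and the Homo minus Het difference of 0.29 did not pass (edgeR adjusted p = 0.727).

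1600002H07Rik, at chr17:24215054-24220934, was the single gene called lower. WT livers held 93.4 CPM at the lowest, 106 at the median and 133 at the highest, against 47.4, 62.1 and 74.5 CPM in Het livers. No Het liver reached the lowest WT liver. The mean fell from 109 ± 13.8 to 61.9 ± 8.96 CPM (SD, n = 7 and 6), a log2 fold change of -0.80 ± 0.12 (SE, edgeR adjusted p = 0.0232). Homo livers lay lower again, at 19.2 to 32.4 CPM, and the Homo minus Het difference of -1.43 was called (edgeR adjusted p = 3.28e-05). Abca3 and 1600002H07Rik thus differed at each step between the genotypes, in opposite directions.

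**Figure D1:**
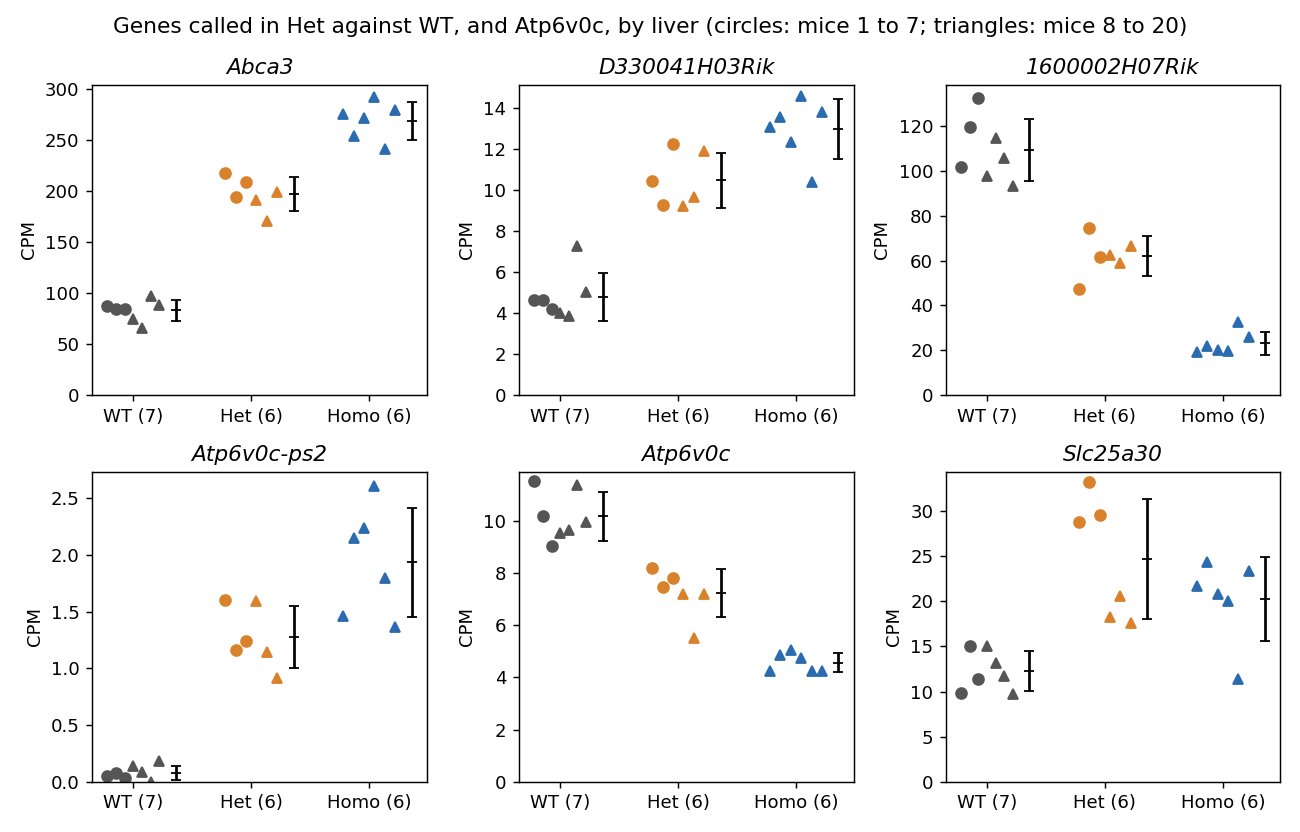
CPM of the 5 genes called in Het against WT and of Atp6v0c in each of the 19 livers, by genotype label; points are livers, and the black mark and bar are the mean and SD. For Abca3 the Het livers lie at 170 to 218 CPM, above the WT livers (65.5 to 96.4 CPM) and below the Homo livers (240.5 to 292 CPM), whereas the Slc25a30 levels of Het and Homo livers overlap.

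Atp6v0c-ps2 is a processed pseudogene on chromosome 6 (chr6:37806086-37806550 in GENCODE M21), a copy of Atp6v0c, whose gene lies on chromosome 17 near Pkd1 (chr17:24163866-24169461, minus strand) and encodes the proton-conducting ring subunit of the vacuolar proton pump. The pseudogene matches the 465-base coding sequence of Atp6v0c at 464 bases (99.78%), and 366 of its 416 windows of 50 bases (87.98%) occur unchanged in the Atp6v0c transcript. Counts of this pair are therefore uncertain, since most reads of one could come from the other. The stretch that holds the single difference, T111C, is shown because only reads that cross it can tell the pair apart within the coding sequence. Positions are counted from 1 at the first base of the start codon, bases 81 to 141 are printed, and the capital marks the differing base.
Atp6v0c: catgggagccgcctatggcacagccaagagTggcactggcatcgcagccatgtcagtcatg
Atp6v0c-ps2: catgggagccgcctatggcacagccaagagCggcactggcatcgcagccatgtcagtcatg

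Atp6v0c-ps2 received 0 to 6 counts per WT library, 32 to 53 per Het library and 49 to 90 per Homo library. WT levels were 0 CPM at the lowest, 0.0801 at the median and 0.179 at the highest, and Het levels 0.912, 1.20 and 1.61 CPM. The pseudogene was close to absent from each WT library and counted in each Het library. The log2 fold change was 3.93 ± 0.45 (SE, edgeR adjusted p = 0.00504), or 15.3-fold from low WT counts. The parent gene Atp6v0c was not called in Het against WT, though its Homo minus Het difference of -0.64 was (edgeR adjusted p = 0.00756). Its levels were 9.03, 9.95 and 11.5 CPM (lowest, median, highest) in WT and 5.52, 7.35 and 8.20 CPM in Het, which did not overlap, with a log2 fold change of -0.44 ± 0.10 (SE, edgeR adjusted p = 0.477). Read as a pair, the pseudogene took 0.80% ± 0.63 of their summed CPM in WT (SD, n = 7), 15.0% ± 2.65 in Het (SD, n = 6) and 29.4% ± 4.02 in Homo livers (SD, n = 6). The sum itself was 10.3 ± 0.92 CPM in WT, 8.52 ± 1.06 in Het and 6.50 ± 0.80 in Homo livers. Of 16 vacuolar proton pump genes tested, 9 lay above 0, the median log2 fold change was 0.004 (-0.05 without Het mice 4, 6 and 7), and Atp6v0c alone had an unadjusted p under 0.05.

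Slc25a30 is the called gene that lies on another chromosome and is no copy of a chromosome 17 gene. It encodes a carrier of the mitochondrial inner membrane (chr14:75757534-75787037). WT levels were 9.74 CPM at the lowest, 11.8 at the median and 15.1 at the highest, and Het levels 17.6, 24.7 and 33.2 CPM. All 6 Het livers stood above all 7 WT livers, but the Het livers split by mouse number: mice 4, 6 and 7 held 28.8, 33.2 and 29.5 CPM and mice 14, 19 and 20 held 18.3, 20.6 and 17.6 CPM. The log2 fold change was 1.12 ± 0.15 (SE, edgeR adjusted p = 0.0134) and was not called without mouse number in the model (1.00, edgeR adjusted p = 0.0775). Homo livers ranged from 11.4 to 24.4 CPM, and the Homo minus Het difference was -0.18 (edgeR adjusted p = 0.943).

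Around Pkd1, 74 genes within 1 Mb were tested and 3 were called, 2 higher and 1 lower. At an unadjusted p under 0.05 there were 18 of the 74 (24.3%), 9 higher and 9 lower, against 7.99% of all genes tested (3.74% higher and 4.25% lower). The share was 10.4% for the 222 genes at 1 to 10 Mb and 9.29% for the 463 genes farther along chromosome 17, with none called in either group. The median log2 fold change within 1 Mb was -0.01, so the neighbourhood held differences in both directions rather than a common shift. Above 0, though not called, were Noxo1 (an organizer subunit of NADPH oxidase 1; 2.01 ± 0.55 against 3.25 ± 1.07 CPM, log2 0.86 ± 0.22) and Dnase1l2 (a deoxyribonuclease; 0.89 ± 0.20). Below 0 were Ccnf, the F-box protein cyclin F (-0.67), Rnps1, a splicing cofactor (-0.26 ± 0.09), and Rps2, a protein of the small ribosomal subunit (-0.23 ± 0.07), with edgeR adjusted p from 0.477 to 0.527. Ccnf and Rnps1 were called lower in Homo than in Het, by -1.09 and -0.49 (edgeR adjusted p = 0.0363 and 0.0371). For each of Noxo1, Dnase1l2, Ccnf, Rnps1 and Rps2 the Het and WT groups overlapped in CPM.

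**Figure D2:**
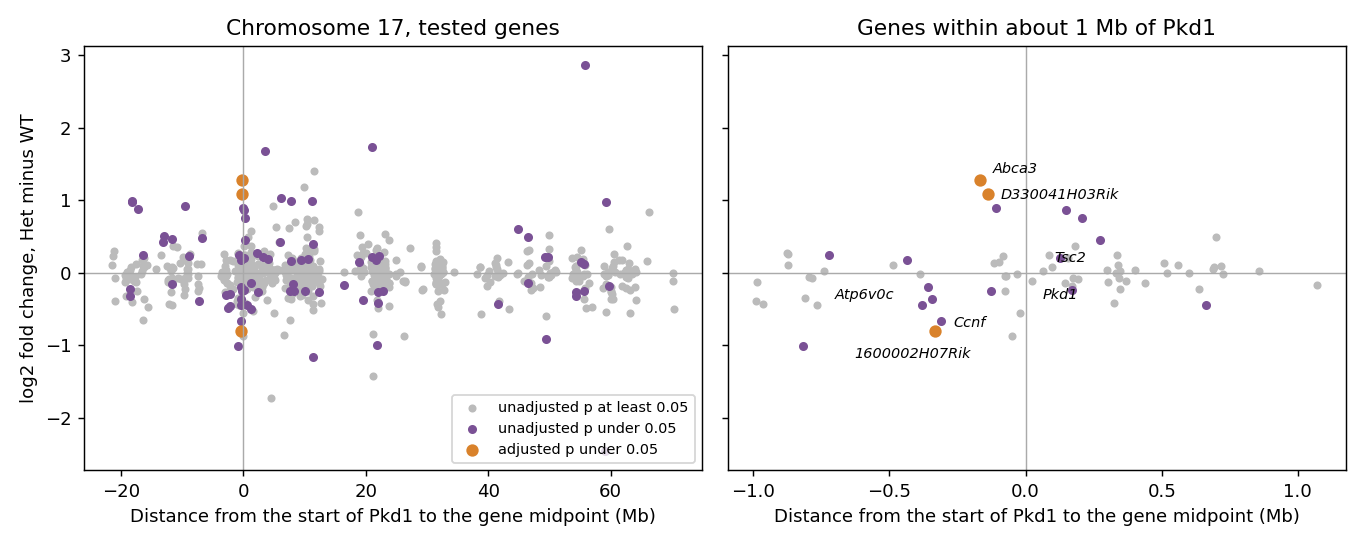
Log2 fold change of Het over WT for tested genes on chromosome 17 against the distance of the gene midpoint from the start of Pkd1 in Mb (left, the chromosome; right, the genes within about 1 Mb). The 3 called genes (orange) sit close to Pkd1, 2 above 0 and 1 below, while Pkd1 and Tsc2 lie near 0.

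The comparison can be read in separate sets of livers, because mice 1 to 7 (3 WT, 3 Het) and mice 9 to 20 (4 WT, 3 Het) share no library. Within each set every Het mouse has a higher number than every WT mouse, so genotype and mouse number cannot be told apart there. In mice 1 to 7, edgeR called 66 of 15694 genes (0.421%), 36 higher and 30 lower, and in mice 9 to 20 it called 0 of 16179 (0%), with 1300 genes (8.04%) at an unadjusted p under 0.05. Abca3 gave log2 fold changes of 1.28 and 1.20 in the 2 sets, D330041H03Rik 1.25 and 1.03, 1600002H07Rik -0.95 and -0.71, Atp6v0c-ps2 4.54 and 3.54, and Slc25a30 1.34 and 0.60. No change between the sets was called for any of the 5 (edgeR adjusted p from 0.274 for Slc25a30 to 0.929 for Abca3).

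The genes called in mice 1 to 7 were looked up in mice 9 to 20. Of 65 that were tested in both sets, 28 (43.1%) had the same sign in mice 9 to 20, against 53.7% of all 15480 genes tested in both. At an unadjusted p under 0.05 in mice 9 to 20, 5 had the same sign (7.69%) and 10 the opposite one, against 761 (4.92%) and 498 of all genes tested in both. The 5 were Abca3, Atp6v0c-ps2, D330041H03Rik, Slc25a30 and Stra6l, a retinol-binding protein receptor. Across 15888 genes the 2 differences correlated with Pearson r = 0.03 (Spearman 0.06). For the 74 genes within 1 Mb of Pkd1 the values were 0.45 and 0.41. Those 74 include Abca3, D330041H03Rik and 1600002H07Rik, whose groups did not overlap and so had the same sign in both sets. The values without them were not computed. These correlations describe genes of the same 13 libraries and carry no test.

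**Figure D3:**
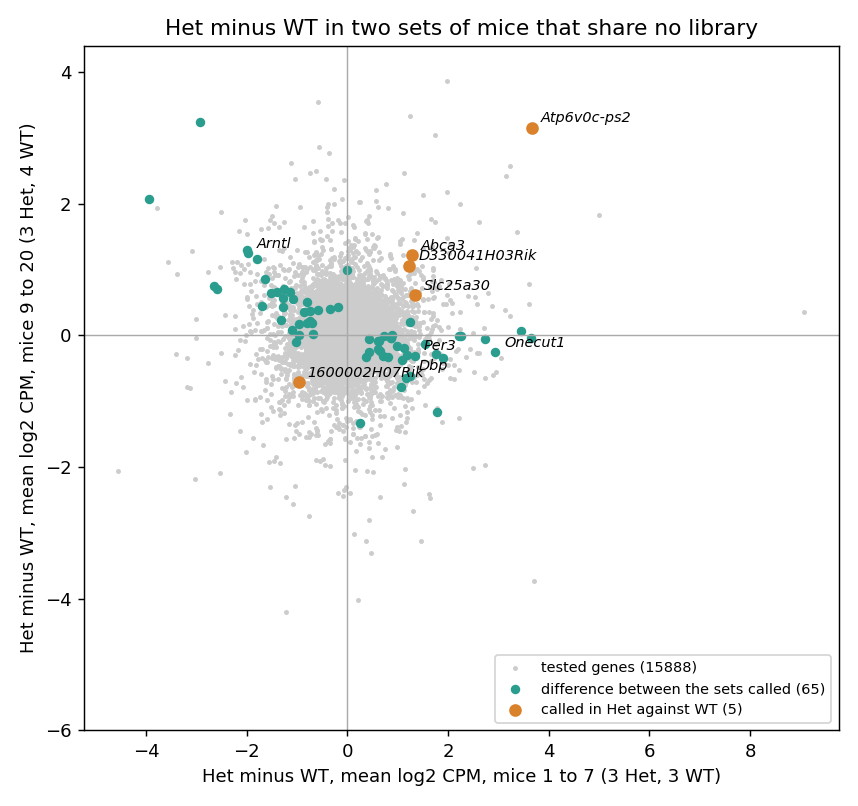
Het minus WT difference of mean log2 CPM in mice 9 to 20 (vertical) against mice 1 to 7 (horizontal), 1 point per tested gene. The 5 called genes (orange) have the same sign on both axes, which follows from every Het library lying beyond every WT library for each. Of the 65 genes whose difference itself differed between the sets (green), 61 have opposite signs. These 65 were picked by the test of that change, which favours opposite signs.

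A direct test of the change between the sets called 65 of 15888 genes (0.409%; edgeR, genotype by set of mouse numbers), 32 with a more positive Het minus WT difference in mice 9 to 20 and 33 with a more negative one. The count ranged from 5 to 70 when single libraries were left out, and was 5 without Het mouse 20 and 11 without Het mouse 6. Core clock genes and clock-driven genes were among them. Transcription in liver follows a daily cycle in which the activator Arntl (BMAL1) with Clock drives E-box genes such as the Per and Cry repressors and Dbp, and Dbp in turn binds D-box sites. Of the 18 clock genes tested, 4 were called for the change between the sets (Arntl, Per3, Dbp and Cry2), and 12 had an unadjusted p under 0.05 (all genes, 9.79%). None of the 18 was called in Het against WT.

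Arntl levels in WT were 65.4, 28.6 and 20.3 CPM in mice 1, 2 and 3, and 9.03, 10.2, 13.8 and 6.66 CPM in mice 9, 11, 12 and 13. In Het livers they were 8.04, 7.48 and 10.2 CPM in mice 4, 6 and 7 and 16.7, 26.5 and 27.4 CPM in mice 14, 19 and 20. In mice 1 to 7 every WT liver thus held more Arntl RNA than every Het liver, and in mice 9 to 20 every WT liver held less. The Het minus WT log2 fold change was -2.15 in mice 1 to 7 and 1.25 in mice 9 to 20, a change of 3.40 (edgeR adjusted p = 0.0165), and over all 13 libraries it was -0.30 ± 0.75.

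In mice 1 to 7 Dbp ran in the opposite sense to Arntl. WT mice 1 to 3 held 68.4, 67.9 and 112 CPM, and Het mice 4, 6 and 7 held 183, 188 and 199 CPM. Het mice 19 and 20 held 108 and 114 CPM. Per3 was lowest in WT mice 1 and 2, at 89.7 and 92.9 CPM, and highest in WT mouse 11, at 333 CPM. The Het minus WT log2 fold change of Per3 was 1.31 in mice 1 to 7 and -0.32 in mice 9 to 20. The changes of Dbp and Per3 between the sets were -1.79 and -1.62 (edgeR adjusted p = 0.0165 for each), against 3.40 for Arntl. The slope on mouse number was not called for Arntl, Dbp or Per3 (edgeR adjusted p = 0.912, 0.759 and 0.390). That slope is linear, so it cannot show a course that falls and then rises, as the Arntl levels did along the numbers. Time of tissue collection is not given in the labels used here and was not tested.

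The Per3 promoter is printed because Per3 was the clock gene with D-box letters in its window. Of the 18 clock genes 16 matched a RefSeq promoter (21 windows of 300 bases, GRCm38). The E-box letters CACGTG, which read the same on both strands, occurred in 6 of the 21 windows (28.57%) against 7.15% of 32851 RefSeq promoters. Those windows belonged to Bhlhe41, Ciart, Cry1, Per1 and Tef. No window of Arntl, Per3, Dbp or Cry2, the clock genes called for the change between the sets, held the E-box letters. The D-box letters TTATGTAA, searched on both strands, occurred in 1 of the 21 (4.76%) against 0.938% of all. That share rests on 1 window. A match of letters is a description and not a measured site, and control of Per3 by Dbp was not tested. The 250 bases before the Per3 start (chr4:151044666-151044915, minus strand) hold the D-box letters 2 times, in capitals.
Per3: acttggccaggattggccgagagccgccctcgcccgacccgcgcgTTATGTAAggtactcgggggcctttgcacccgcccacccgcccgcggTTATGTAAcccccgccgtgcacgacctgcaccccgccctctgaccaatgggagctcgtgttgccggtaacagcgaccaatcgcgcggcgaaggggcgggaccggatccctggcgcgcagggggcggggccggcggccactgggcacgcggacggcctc

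Tat and G6pc also differed between the sets, each as the 1 member of its list called for that change (of 20 genes of amino acid breakdown and the urea cycle, and of 18 of glycolysis and gluconeogenesis). Their lists did not split: the medians in mice 1 to 7 and in mice 9 to 20 were -0.02 and 0.01 for amino acid breakdown and the urea cycle, and -0.09 and -0.04 for glycolysis and gluconeogenesis. Tat, the tyrosine aminotransferase induced by glucocorticoids, measured 1054, 578 and 782 CPM in WT mice 1 to 3, and 292, 187 and 261 CPM in Het mice 4, 6 and 7. In mice 9 to 13 WT livers held 226 to 396 CPM and in mice 14 to 20 Het livers held 390 to 494 CPM. G6pc, the last enzyme of gluconeogenesis, had a log2 fold change of -1.23 in mice 1 to 7 and 0.68 in mice 9 to 20 (change 1.91, edgeR adjusted p = 0.0165). Both genes thus had a log2 fold change below 0 in mice 1 to 7 and above 0 in mice 9 to 20. Neither was called in mice 9 to 20 (edgeR unadjusted p = 0.0337 for Tat and 0.00562 for G6pc), where the Tat ranges overlapped. The genes were picked by the test of the change, which favours opposite signs.

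Of 20 genes of the unfolded protein response 2 were called for the change between the sets, Dnajb9 and Herpud1. Dnajb9, a co-chaperone of the unfolded protein response, measured 51.3, 51.3 and 51.5 CPM in the WT livers numbered 1 to 3, whereas the remaining 10 livers held 16.4 to 31.9 CPM. Its log2 fold change was -0.94 in mice 1 to 7 and 0.00 in mice 9 to 20. Herpud1, which serves protein removal from the endoplasmic reticulum, changed by 1.21 between the sets (edgeR adjusted p = 0.0343). The list median was -0.31 in mice 1 to 7 and -0.05 in mice 9 to 20. With mouse number in the model it was 0.003 with 10 of the 20 above 0 (0.15 without Het mice 4, 6 and 7), and 10 of the 20 were called for the number slope (all genes, 752 or 4.73%).

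**Figure D4:**
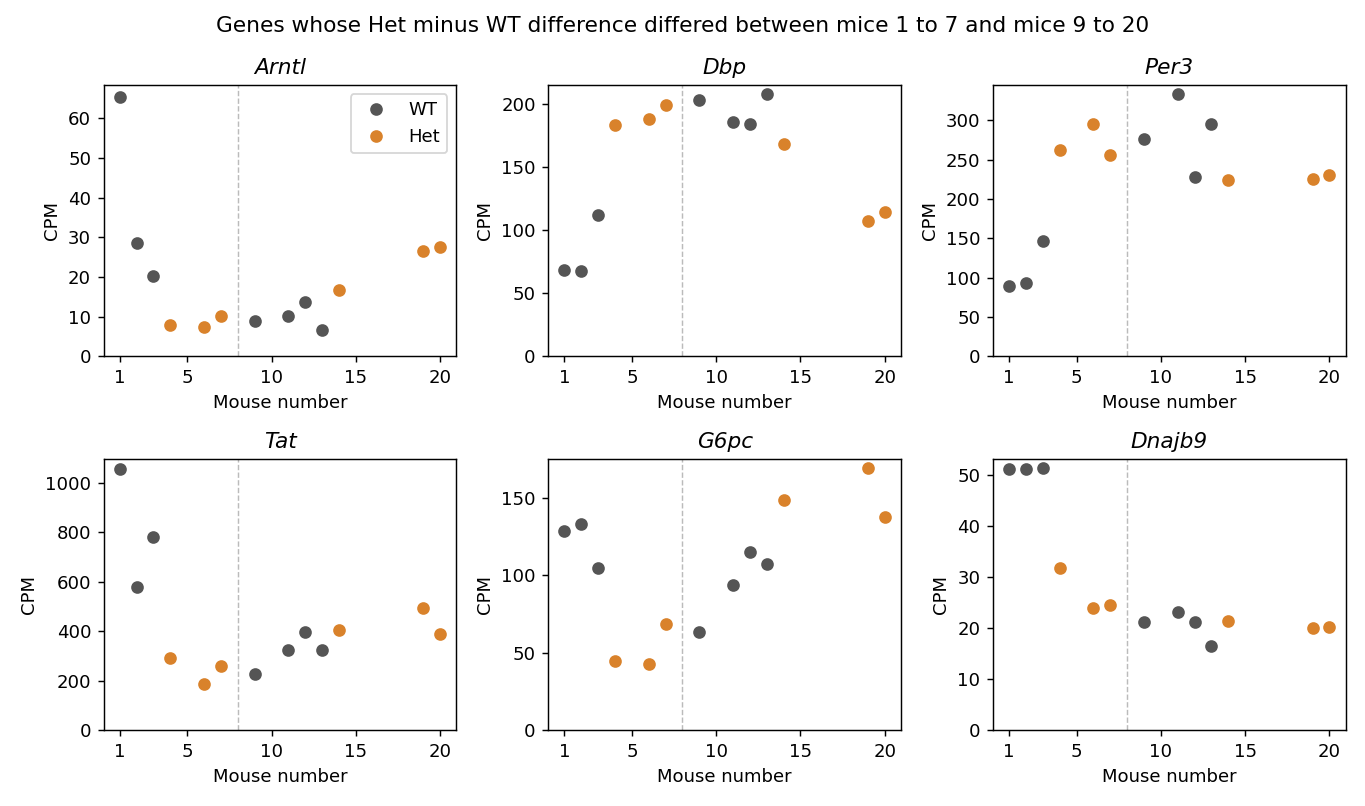
CPM of 6 genes whose Het minus WT difference differed between the sets of mice, against mouse number, with WT livers in grey and Het livers in orange; the dashed line parts mice 1 to 7 from mice 9 to 20. Arntl lies higher in WT than in Het livers left of the line (20.3 to 65.4 against 7.48 to 10.2 CPM) and lower in WT right of it (6.66 to 13.8 against 16.7 to 27.4 CPM), and Dnajb9 in WT mice 1 to 3 lies above the other 10 livers.

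Among the gene lists, Abca3 was the only member called in Het against WT. The lists were read by the sign and median of their members, beside 49.1% of all genes above 0 and a median of -0.003. An unadjusted p under 0.05 was reached by 7.99% of all genes, 3.74% higher and 4.25% lower. Of 24 fatty acid oxidation genes and targets of the lipid sensor PPARA, 22 lay above 0 (median 0.11), and 3 (12.5%) had an unadjusted p under 0.05, all higher. Cyp4a14, a microsomal fatty acid hydroxylase, had a log2 fold change of 1.33, Acot1, an acyl-CoA thioesterase, one of 0.54, and Hadha, of the mitochondrial trifunctional protein, one of 0.15 ± 0.06. Cpt1a, the carnitine transferase that admits fatty acids to mitochondria, differed by 0.06 ± 0.07. The median was 0.27 in mice 1 to 7 and 0.09 in mice 9 to 20, and 0.0006 without Het mice 4, 6 and 7.

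Of 20 genes of cholesterol synthesis and uptake, 18 lay above 0 (median 0.22). The list median was 0.24 in mice 1 to 7 and -0.16 in mice 9 to 20. It ranged from -0.02 (without Het mouse 4) to 0.33 with single livers left out, and was -0.04 without Het mice 4, 6 and 7. Fatty acid synthesis genes had 14 of 21 above 0 and a median of 0.06 (-0.07 without those 3 livers), with Fasn, the fatty acid synthase, at 0.26 ± 0.29 and Srebf1, its regulator, at -0.37 ± 0.14.

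Acute phase and macrophage genes had medians below 0. Liver endothelium had 9 of 18 above 0 (median -0.006, and -0.12 without Het mice 4, 6 and 7). An unadjusted p under 0.05 was reached by 16.7% of the endothelium genes, 1 higher and 2 lower, against 7.99% of all genes. In whole liver RNA, fewer cells of a type and less RNA per cell cannot be told apart. Of 20 acute phase genes 2 lay above 0 (median -0.16) and 3 (15%) had an unadjusted p under 0.05, all lower: Lcn2 at -0.75, Fgb (fibrinogen beta chain) at -0.24 ± 0.08 and Serpina3n at -0.21. Fgb measured 1408 ± 154 CPM in WT and 1146 ± 133 CPM in Het (SD, n = 7 and 6). The acute phase median was -0.24 in mice 1 to 7 and -0.12 in mice 9 to 20, and turned to 0.02 without Het mice 4, 6 and 7. Macrophage and Kupffer cell genes had 4 of 20 above 0 (median -0.11, and -0.11 without those 3 livers). Of them 1 (5%) had an unadjusted p under 0.05, the complement gene C1qb at -0.22 ± 0.08. The summed macrophage markers Adgre1, Clec4f, Csf1r and Cd68 ran from 165 to 207 CPM in WT and from 152 to 178 CPM in Het, which overlapped. The endothelial markers Stab2, Pecam1 and Cdh5 summed to 184 to 203 CPM in WT and 172 to 199 CPM in Het, which overlapped too. Above 0 were 0 of the 4 macrophage markers and 0 of the 3 endothelial markers, and 0 of either were called.

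Bile duct genes had 2 of 14 tested above 0 (median -0.27; -0.23 in mice 1 to 7, -0.10 in mice 9 to 20, and -0.30 without Het mice 4, 6 and 7). The chloride channel gene Cftr was the member with an unadjusted p under 0.05, at 0.673, 1.03 and 1.51 CPM in WT and 0, 0.114 and 0.981 CPM in Het (lowest, median, highest; log2 -2.29 ± 0.83, edgeR adjusted p = 0.534). The duct keratin Krt19 averaged 1.19 ± 0.87 CPM in WT and 0.836 ± 0.324 CPM in Het. Both genes lay near 1 CPM, where the summed duct markers Krt19, Krt7, Epcam and Sox9 spanned 5.14 to 10.6 CPM in WT and 4.11 to 7.98 CPM in Het. Primary cilium genes had 4 of 17 above 0 (median -0.13), with Bbs1 at -1.02 and Ift172 at -0.29 ± 0.10 lower and Bbs2 at 0.43 higher at an unadjusted p under 0.05 (17.6% of the list). The cilium median was -0.09 in mice 1 to 7 and turned to 0.03 in mice 9 to 20, and was -0.08 without Het mice 4, 6 and 7. Of 16 polycystin and polycystic disease genes, 6 lay above 0 (median -0.02, and 0.07 without those 3 livers).

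No fibrosis gene was called. Of 24 stellate cell and fibrosis genes, 10 lay above 0 (median -0.07, and 0.22 without Het mice 4, 6 and 7) and none had an unadjusted p under 0.05 by edgeR. Col1a1, the main fibrillar collagen, measured 10.9, 23.4 and 33.4 CPM in WT and 13.5, 16.5 and 21.5 CPM in Het, with a log2 fold change of -0.29 ± 0.30 (95% interval -0.92 to 0.35). That interval leaves room for a difference in either direction. Acta2, the actin of activated stellate cells, differed by 0.10 ± 0.35. The proliferation marker Mki67 differed by 0.01 ± 0.22, and the fetal liver gene Afp by -0.13 ± 0.30.

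Stress genes gave mixed results. Of 16 targets of the oxidant sensor NRF2 tested, 11 lay above 0 (median 0.13, and 0.13 without Het mice 4, 6 and 7). An unadjusted p under 0.05 was reached by 25% of them, against 7.99% of all genes, with 3 higher and only Hmox1 lower. Hmox1, heme oxygenase 1, had levels of 6.17, 6.68 and 7.38 CPM in WT and 4.11, 5.10 and 5.93 CPM in Het. Its groups did not overlap, yet the log2 fold change of -0.40 ± 0.11 was not called (edgeR adjusted p = 0.477). The inflammatory cytokine Il1b had a lower mean in Het and was not called (1.12 ± 0.45 against 0.492 ± 0.162 CPM, log2 -1.30 ± 0.33, edgeR adjusted p = 0.477). Interferon response genes had 16 of 22 above 0 (median 0.13), with the antiviral sensor gene Oas1a at 0.53 ± 0.19. The interferon median was 0.15 in mice 1 to 7 and -0.01 in mice 9 to 20, and turned to -0.06 without Het mice 4, 6 and 7.

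**Figure D5:**
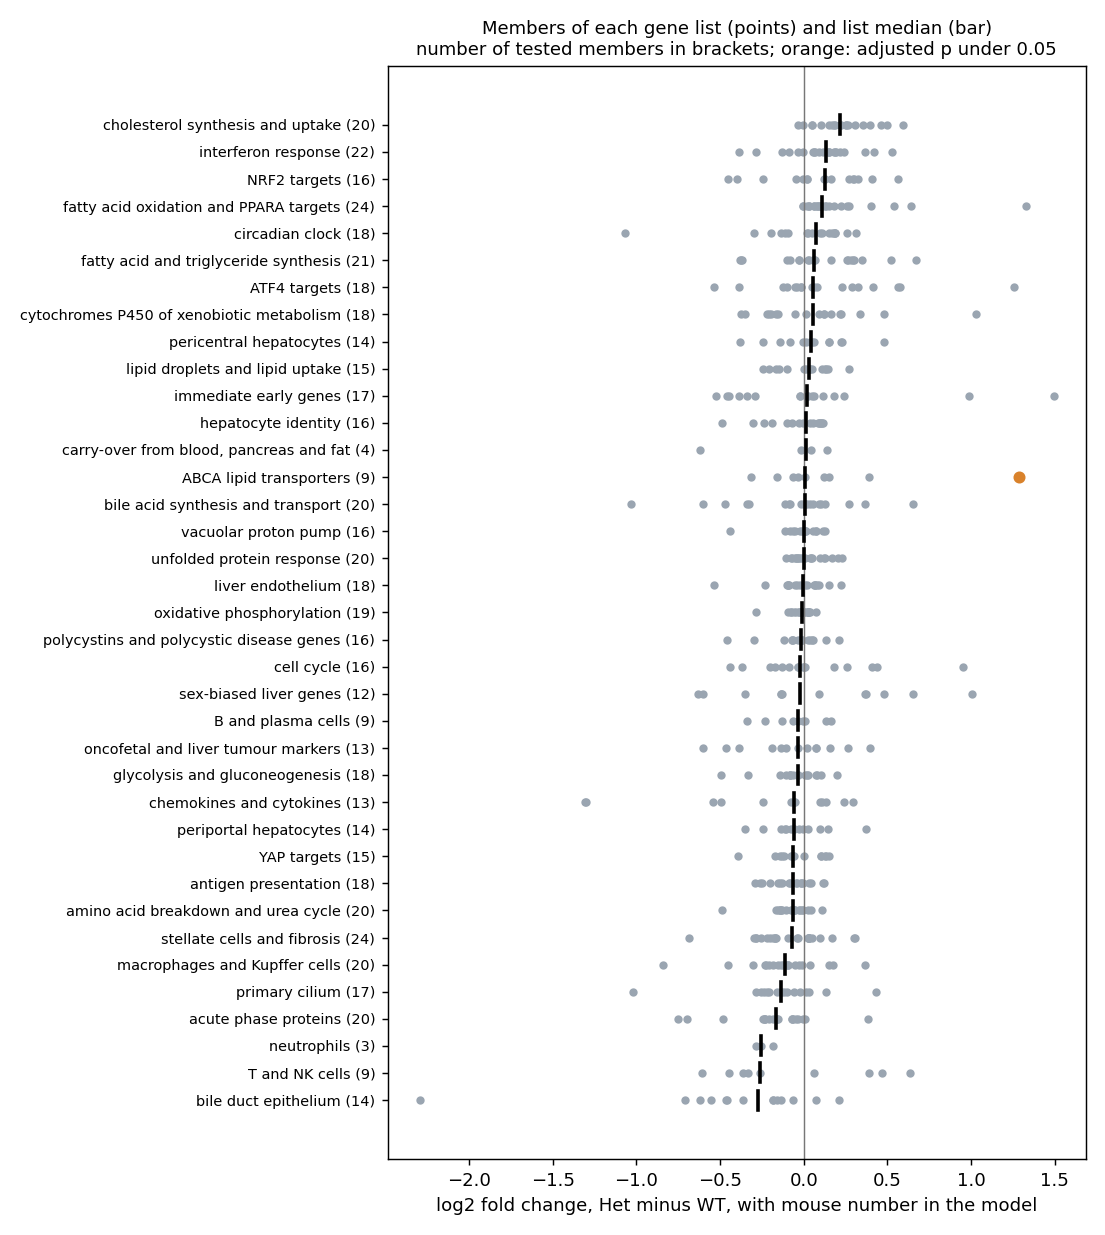
Log2 fold change of Het over WT for the tested members of each gene list (points), with the list median (bar); the number of members tested stands in brackets. List medians run from -0.27 (bile duct epithelium) to 0.22 (cholesterol synthesis and uptake), and Abca3 (orange) is the called member.

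Beyond the called genes, the smallest p belonged to Slco1a4, an organic anion transporter of hepatocytes. WT levels were 31.1, 45.0 and 65.9 CPM and Het levels 17.6, 24.4 and 33.7 CPM (lowest, median, highest). The groups overlapped at their edges only, and the log2 fold change was -1.03 ± 0.19 (edgeR adjusted p = 0.295). Csrp2, a LIM domain protein, and Spc25, a kinetochore protein, were higher in each Het liver than in any WT liver, with log2 fold changes of 0.47 ± 0.10 and 0.57 ± 0.13 (edgeR adjusted p = 0.477 for each). Cpt1c, a carnitine palmitoyltransferase paralogue known mainly from brain, averaged 5.60 ± 2.46 CPM in WT and 2.13 ± 1.18 CPM in Het (log2 -1.61 ± 0.37, edgeR adjusted p = 0.477). For genes of at least 1 CPM the 95% interval reached, at the median, 0.26 on the log2 scale to either side of the estimate. Smaller differences were thus not resolvable for a typical gene. That interval is not adjusted over the genes tested, and larger differences also went uncalled, as for Slco1a4 and Cpt1c.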

How the data were processed

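Raw read counts by gene symbol were deposited by the authors in 1 table, a column for each mouse. Per the submitters' processing notes the tools included STAR 2.7.2b and featureCounts 1.6.4, with build GRCm38. Tool settings, annotation and strand are not given in the sources used. Of 35976 rows, 27 carry a date in place of a symbol (0.145% to 0.174% of counts); they stayed in the totals and are not named. Positions came from RefSeq (GRCm38.p6): of the 15888 genes tested 14853 matched by symbol, 493 by an older symbol and 542 had none.

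Counts were tested with edgeR 4.0.16 (quasi-likelihood F test, TMM, filterByExpr by genotype, two-sided, Benjamini-Hochberg) in R 4.3.3, with genotype and mouse number in the model. Homo contrasts used all 19 libraries, so Homo against WT and Het against WT share the WT libraries. Printed CPM use TMM sizes over 19 libraries, and log2 CPM a prior count of 2. Standard errors were derived from the F statistics. Scripts were tested on simulated data. Replicate libraries differed beyond counting noise (chi-square per degree of freedom at least 23.2). DESeq2 1.42.0 and limma 3.58.1 served as alternatives. The libraries, the gene lists and the mouse number covariate were chosen with earlier results of these data known. Named genes were the called genes, the 20 smallest p at a mean of at least 1 CPM, per list the first 2 tested members and the one with the smallest p, and tested genes within 0.2 Mb of Pkd1. Genes of the test between sets of mice, Homo-linked neighbours, Stra6l and further list members were named after their values were seen. Some results are not reported here.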

Additional observations from a re-analysis of the deposited data

Results flagged for a closer look

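In 21 of 312 groups of libraries checked for the genes named, 1 liver stood far from the rest of its genotype by Dixon's criterion, which chance meets in about 1 of 20 groups. Among WT livers these were mouse 1 for Fasn (848 CPM), Arntl (65.4 CPM), Jun (12.8 CPM) and Isg15 (3.35 CPM), mouse 2 for S100a8 (2.54 CPM), mouse 3 for Hal (138 CPM), mouse 12 for D330041H03Rik (7.25 CPM) and Rpl3l (1.13 CPM), and mouse 13 for Krt19 (2.99 CPM), Cd24a (2.60 CPM) and Ndufb10 (36.4 CPM), each the highest. Among Het livers mouse 4 was the highest for Fasn (1293 CPM), Rora (482 CPM), Dnajb9 (31.9 CPM) and Adgre1 (23.3 CPM) and the lowest for Hbb-bt (1.32 CPM). Het mouse 6 was the highest for Serpina4-ps1 (199 CPM) and Gm15638 (23.9 CPM), mouse 14 for Asns (1.77 CPM), and mouse 19 the highest for Cftr (0.981 CPM) and the lowest for Atp6v0c (5.52 CPM).

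The Het minus WT difference itself differed between mice 1 to 7 and mice 9 to 20 for 19 of the genes examined (edgeR adjusted p under 0.05 in the test of that change). It was more positive in mice 9 to 20, on the log2 scale, for Arntl (3.40), Nr0b2 (3.24), Tat (2.14), G6pc (1.91), Cpeb2 (1.83), Trp53inp1 (1.78), Ip6k2 (1.53), Nedd4l (1.34), Herpud1 (1.21), Alg2 (1.14) and Dnajb9 (0.94). It was more negative for Ccne1 (-2.44), Tgm1 (-2.30), Gm38679 (-1.82), Dbp (-1.79), Per3 (-1.62), Fzd4 (-1.33), Cry2 (-0.81) and Cebpa (-0.69). Genes with the smallest p in that test, and list members that it called, had been added to the genes examined. The count of 19 is therefore no result about a set fixed beforehand. Over all genes tested the change was called for 65 of 15888 (0.409%). Mouse number and genotype cannot be told apart within either set.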

How the results depend on the processing

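The 5 called genes of Het against WT kept their direction in each alternative run. They were chosen from these same livers and did not overlap between Het and WT, so the kept direction is no independent check. The count of calls was 4 without mouse number, 11 with the set of mouse numbers in its place, 44 with DESeq2 (which shared all 5), 66 in mice 1 to 7, 0 in mice 9 to 20, and, in alternatives chosen after seeing the data, 2 without mice 1 to 3 and 0 without mice 4, 6 and 7. Leaving out single livers gave 2 to 5 calls: 2 without Het mouse 4 or Het mouse 7, and 3 without WT mouse 2, Het mouse 6 or WT mouse 13. Of these 13 fits, Abca3 and Atp6v0c-ps2 lost their call in 0, Slc25a30 in 4 (edgeR adjusted p up to 0.0621), 1600002H07Rik in 7 (up to 0.0971) and D330041H03Rik in 8 (up to 0.136). A minimum of 1 CPM in 6 libraries removed Atp6v0c-ps2 from the test.

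For Homo against Het the 40 calls became 130 with DESeq2, 26 without the count filter and 11 to 38 with single livers left out. For Homo against WT the 38 became 133 with DESeq2 and 17 to 47. The 752 calls of the mouse number slope became 1543 with DESeq2 and 307 (without WT mouse 1) to 703. The 65 calls of the change between the sets became 301 with DESeq2 and 5 to 70. The cause of these shifts was not tested. Medians of the lists changed sign in 176 of 1066 refits. No paired analysis was possible because no 2 libraries share a mouse number. Counts near 1 CPM, as for Cftr, limit what can be resolved there.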

Other observations

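Marker genes of tissues that can be carried over at dissection stood apart in a pair of Het livers. The pancreas genes Cela1 and Cpa1 summed to 29.1 CPM in Het mouse 19, against 1.35 to 3.02 CPM in WT livers and 0.775 to 1.67 CPM in the other 5 Het livers. The fat genes Adipoq and Plin1 summed to 4.65 CPM in Het mouse 14 and 1.26 CPM in Het mouse 19, and to at most 0.0252 CPM in WT and 0.252 CPM in the other 4 Het livers, too low to be tested. The red cell genes Hbb-bs and Alas2 summed to 38.7 to 55.4 CPM in WT and 39.1 to 54.9 CPM in Het livers. That sum was mostly Alas2, since Hbb-bs ran from 0.147 to 3.55 CPM in WT and from 1.06 to 2.49 CPM in Het. Of 4 tested genes of blood, pancreas and fat 2 lay above 0. The red cell gene Hbb-bt was lower in Het and not called (edgeR unadjusted p = 0.0124, adjusted p = 0.527). Without Het mouse 14, and likewise without Het mouse 19, edgeR called 4 genes in Het against WT in place of 5.

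Genes that differ between male and female liver were tested at 12 of 18, with 6 above 0 and a median log2 fold change of -0.02 (-0.05 without Het mice 4, 6 and 7). Mup20, a major urinary protein gene, spanned 76.7 to 852 CPM in WT and 73.6 to 646 CPM in Het livers.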
